A study of Mus musculus with 28 samples.

Results

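The mRNA of 10 mouse genes that run and police cell division was followed across 5 testis libraries. They are the polo-like kinases Plk1 and Plk4, the aurora kinases Aurka, Aurkb and Aurkc, the spindle checkpoint kinases Bub1, Bub1b and Ttk, the phosphatase Cdc25c and the transcription factor Foxm1. The genes were picked by name for their roles, with earlier results of these data known, and all 10 were found among the 34839 genes of the table. The libraries came from testis of C57BL/6 mice and fall into Prdm9 knockout (Prdm9 KO, 2 libraries), Hop2 knockout (Hop2 KO, 2 libraries) and a single wild-type library labelled adult. No age is given in the labels for the knockout mice, so age and genotype cannot be told apart in a comparison with wild type. The labels do not say what the knockout alleles remove, whether a library holds RNA of 1 mouse or of several, or whether replicates are different mice. The p-values therefore rest on the variation among these libraries, and that variation may be technical. PRDM9 is the histone methyltransferase that marks the sites of meiotic recombination, and HOP2, encoded by Psmc3ip, helps broken DNA strands find their partner chromosome. Spermatocytes lacking either protein are known to arrest in meiotic prophase, before the meiotic divisions. A further testis library mapped meiotic double-strand breaks in C57BL/6 mice homozygous for a Prdm9 allele that lacks the KRAB domain (Prdm9 K/K).

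Entry into division is driven by CDK1 with its cyclins, which CDC25 phosphatases switch on by removing inhibitory phosphates. Polo-like and aurora kinases then mature the centrosomes, build the spindle and correct faulty attachments, while BUB1, BUBR1 (encoded by Bub1b) and TTK, also called MPS1, hold back anaphase until every kinetochore is attached. FOXM1 activates many of these genes late in the cell cycle. In the testis the machinery serves both the mitotic divisions of spermatogonia and the meiotic divisions of spermatocytes, and AURKC is known mainly from germ cells.

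Values are abundances that the authors called TPM, a measure of transcripts corrected for length, but with columns that sum to between 825459 and 953598 in the knockouts and to 1622660 in wild type, whereas ordinary TPM add up to 1000000. They are called rescaled TPM here, and they keep no read depth. The labels held up only in part against the targeted genes. Psmc3ip was low in Hop2 KO, at 3.51 and 5.06 rescaled TPM, and stood at 22.8 and 26.4 in Prdm9 KO and at 197 in wild type. The Prdm9 KO libraries held Prdm9 at 4.73 and 5.93, the Hop2 KO libraries at 10.7 and 15.03, and wild type at 6.20. Both Prdm9 KO libraries thus lay below both Hop2 KO libraries. The level did not set the Prdm9 KO libraries apart from wild type, a testis whose cell type markers differed widely from theirs. All 10 Sertoli markers had values above 0 in every library, but a value above 0 is only a weak check of the testis label.

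The knockout testes held less mRNA of most of these genes than the wild-type testis. In values as deposited, all 10 genes were lower in each of the 4 knockout libraries than in wild type. In the same values 46.9% of the 16261 tested genes also showed this pattern, while 44.2% were higher in all 4. With columns rescaled to 1000000, Bub1 stood at 19.4 in wild type and at 24.8 to 34.7 in the knockouts. Aurkb then stood at 11.80 in wild type and at 11.76 to 16.6 in the knockouts. Values as deposited were tested with limma on log2(value + 1) and a Benjamini-Hochberg adjusted p under 0.05. By that test 8 of the 10 fell in Prdm9 KO, where 39.4% of all tested genes fell and 34.6% rose. The same 8 genes fell in Hop2 KO, where 39.5% of tested genes fell and 35.0% rose. No member rose in either comparison. Aurkb and Bub1 did not pass. The median log2 change of the 10 genes was -2.10 in Prdm9 KO and -2.19 in Hop2 KO, beside medians of -0.08 and -0.06 over all tested genes. Both comparisons share the single wild-type library, which the model assumes to vary like the knockouts, so they are not independent of each other. In whole-testis RNA, fewer cells of a type and less RNA per cell cannot be told apart.

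**Figure D1:**
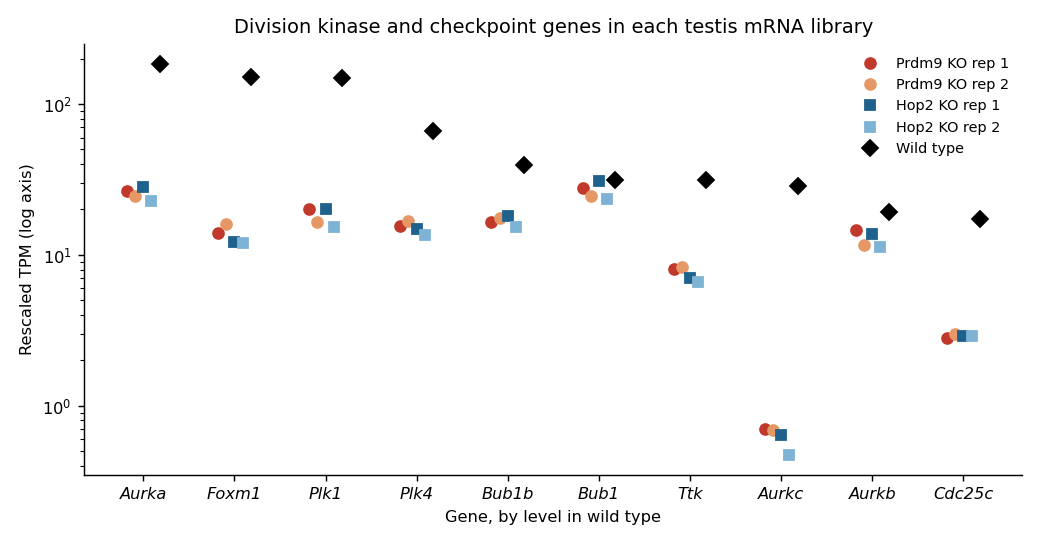
Level of each of the 10 genes in the 5 testis mRNA libraries, as rescaled TPM on a log axis, with genes ordered by their wild-type level and 1 point per library. In these values as deposited, the black diamond (wild type) lies above all 4 knockout points for every gene, by a wide gap for Aurkc, Foxm1, Plk1 and Aurka and by a narrow one for Bub1 (31.5 against 23.6 to 31.1) and Aurkb.

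Marker mRNAs of testis cell types differed along with these genes. All 10 late spermatocyte markers fell in both comparisons, with a summed level of 71.8 to 120 rescaled TPM in the knockouts and 14428 in wild type. All 12 spermatid markers fell, from a sum of 127398 in wild type to between 17.5 and 53.3 in the knockouts, with Prm2 at 0 in a Hop2 KO library. Only 7 of the 10 late spermatocyte and 7 of the 12 spermatid markers had a mean of at least 1 over the 4 knockout libraries. The others reached the mean of 1 needed for testing only through wild type, so they could pass only as lower. Of the markers of spermatogonia, 8 of 10 rose, with sums of 639 to 772 in the knockouts against 192. In values as deposited, the remaining markers, Gfra1 and Nanos3, lay below wild type in all 4 knockout libraries. In those values Gfra1 passed as lower in Hop2 KO (log2 change -0.86, limma adjusted p = 0.00723). This depended on the scaling of the columns. With columns rescaled to a common sum, 0 of the 10 spermatogonia markers passed as lower in Hop2 KO. The count was also 0 after quantile normalization, and it was 1 after median-ratio scaling. Of the Sertoli markers, 9 of 10 rose (sums of 7205 to 11186 against 1809). The exception was Clu, which did not pass and made up much of these sums, at 3809 to 7713 in the knockouts and 1239 in wild type. Of the Leydig markers 6 of 7 rose, and of the macrophage markers 7 of 7. The part of these marker shifts in the changes of the division genes was not tested.

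PLK1, the polo kinase of mitotic entry, centrosome maturation and chromosome alignment, is encoded by Plk1 (ENSMUSG00000030867, chromosome 7, 122159435 to 122169884, RefSeq GRCm38.p6). Plk1 stood at 20.0 and 16.4 rescaled TPM in the Prdm9 KO libraries, 20.1 and 15.3 in the Hop2 KO libraries and 149 in wild type. The knockout groups overlapped, and wild type lay far above both, at 8.19 times the Prdm9 KO mean and 8.44 times the Hop2 KO mean. The log2 change was -2.97 (SE 0.23, limma, Benjamini-Hochberg adjusted p = 0.00145) in Prdm9 KO and -3.02 (SE 0.23, adjusted p = 0.00135) in Hop2 KO. PLK4, the kinase that starts the assembly of a new centriole, is encoded by Plk4 (ENSMUSG00000025758, chromosome 3, 40799951 to 40816883). Plk4 stood at 15.4 and 16.7 in the Prdm9 KO libraries, 14.8 and 13.5 in the Hop2 KO libraries and 65.9 in wild type. Its change was smaller than that of Plk1 in both comparisons, at -1.98 on the log2 scale (SE 0.13, limma adjusted p = 0.000975) in Prdm9 KO and -2.14 (SE 0.13, adjusted p = 0.000771) in Hop2 KO. Whether the changes of Plk1 and Plk4 differ was not tested.

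The 3 aurora kinases differed widely in how far they lay below wild type. AURKA works at centrosomes and spindle poles and is encoded by Aurka (ENSMUSG00000027496, chromosome 2, 172356190 to 172370886). Aurka stood at 26.3 and 24.7 rescaled TPM in the Prdm9 KO libraries, 28.1 and 22.8 in the Hop2 KO libraries and 186 in wild type, the highest wild-type level among the 10 genes. Its log2 change was -2.81 (SE 0.17, limma adjusted p = 0.000741) in Prdm9 KO and -2.83 (SE 0.17, adjusted p = 0.000714) in Hop2 KO. AURKB is the enzyme of the chromosomal passenger complex, which corrects attachments at centromeres and acts in cytokinesis, and is encoded by Aurkb (ENSMUSG00000020897, chromosome 11, 69045624 to 69051664). Aurkb stood at 14.5 and 11.7 in the Prdm9 KO libraries, 13.7 and 11.2 in the Hop2 KO libraries and 19.1 in wild type. The 4 knockout values lay below wild type, but the change did not pass the threshold. The log2 change was -0.52 (95% interval -1.16 to 0.11, limma adjusted p = 0.103) in Prdm9 KO and -0.59 (-1.23 to 0.05, adjusted p = 0.0776) in Hop2 KO.

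AURKC can take the place of AURKB in the passenger complex of meiotic cells and is encoded by Aurkc (ENSMUSG00000070837, chromosome 7, 6995347 to 7003091). Aurkc stood at 0.705 and 0.686 rescaled TPM in the Prdm9 KO libraries and at 0.644 and 0.470 in the Hop2 KO libraries, against 28.8 in wild type. It was the lowest of the 10 genes in all 4 knockout libraries, but in wild type it stood above Aurkb and Cdc25c. The wild-type value was 41.4 times the Prdm9 KO mean and 51.7 times the Hop2 KO mean. The log2 change of -4.13 (SE 0.11, limma adjusted p = 8.11e-05) in Prdm9 KO and -4.26 (SE 0.11, adjusted p = 7.51e-05) in Hop2 KO understates those ratios, because 1 was added to values that were below 1 in the knockouts. Aurkc reached the mean of 1 needed for testing only through its wild-type value. The added 1 also narrows the spread of values below 1, so the small SE and p-values of Aurkc are no added support.

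FOXM1, the forkhead factor of late cell cycle genes, is encoded by Foxm1 (ENSMUSG00000001517, chromosome 6, 128362994 to 128375886). Foxm1 stood at 14.1 and 16.0 rescaled TPM in the Prdm9 KO libraries, 12.2 and 12.03 in the Hop2 KO libraries and 151 in wild type. In wild type it was the second most abundant of the 10, next to Plk1, whereas in the knockouts it ranked between 6 and 7. The log2 change was -3.25 (SE 0.13, limma adjusted p = 0.00029) in Prdm9 KO and -3.54 (SE 0.13, adjusted p = 0.00023) in Hop2 KO.

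In values as deposited, the checkpoint kinases ranged from the gene nearest to its wild-type level to one well below it. BUB1 is a kinetochore scaffold and kinase and is encoded by Bub1 (ENSMUSG00000027379, chromosome 2, 127800197 to 127831859). Bub1 stood at 27.8 and 24.5 rescaled TPM in the Prdm9 KO libraries, 31.1 and 23.6 in the Hop2 KO libraries and 31.5 in wild type. The upper Hop2 KO library almost reached wild type. The log2 change was -0.26 (95% interval -0.89 to 0.37, limma adjusted p = 0.339) in Prdm9 KO and -0.21 (-0.84 to 0.42, adjusted p = 0.434) in Hop2 KO, which does not show that the levels were alike.

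BUBR1 belongs to the inhibitor of the anaphase-promoting complex and is encoded by Bub1b (ENSMUSG00000040084, chromosome 2, 118598202 to 118641592). Bub1b stood at 16.4 and 17.6 in the Prdm9 KO libraries, 18.1 and 15.3 in the Hop2 KO libraries and 39.2 in wild type. It fell by 1.16 on the log2 scale in Prdm9 KO (SE 0.16, limma adjusted p = 0.00593) and by 1.19 in Hop2 KO (SE 0.16, adjusted p = 0.00544). TTK, which starts checkpoint signalling at unattached kinetochores, is encoded by Ttk (ENSMUSG00000038379, chromosome 9, 83834651 to 83872390). Ttk stood at 8.03 and 8.31 in the Prdm9 KO libraries, 7.03 and 6.60 in the Hop2 KO libraries and 31.3 in wild type. Ttk fell by 1.81 on the log2 scale in Prdm9 KO (SE 0.14, limma adjusted p = 0.00143) and by 2.05 in Hop2 KO (SE 0.14, adjusted p = 0.00105).

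CDC25C, a phosphatase that activates CDK1 with cyclin B, is encoded by Cdc25c (ENSMUSG00000044201). Cdc25c stood at 2.80 and 3.01 rescaled TPM in the Prdm9 KO libraries, 2.88 and 2.92 in the Hop2 KO libraries and 17.4 in wild type. It was the lowest of the 10 genes in wild type. The knockout values lay close together, and the log2 change was -2.23 in both comparisons (SE 0.13, limma adjusted p = 0.000663 in Prdm9 KO and 0.000647 in Hop2 KO).

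The scale of the columns bears on the smaller of these changes. Rescaling each library to a sum of 1000000 moved the median log2 change of all genes in Prdm9 KO from -0.08 to 0.73, and moved the shares of tested genes that fell and rose to 27.9% and 50.5% in Prdm9 KO and to 29.2% and 48.6% in Hop2 KO. On that scale 7 of the 10 genes fell in each comparison and none rose, and these 7 (Plk1, Plk4, Aurka, Aurkc, Foxm1, Ttk and Cdc25c) also fell after quantile normalization and after median-ratio scaling, as 26.9% of all tested genes did in both comparisons under every scaling, while 33.1% rose. Over all tested genes, quantile normalization gave 30.2% lower and 48.9% higher in Prdm9 KO and 30.4% and 48.7% in Hop2 KO. Median-ratio scaling gave 35.5% lower and 38.9% higher in Prdm9 KO and 35.5% and 39.2% in Hop2 KO. Bub1b passed under quantile normalization and median-ratio scaling, but not with columns rescaled to 1000000, where its log2 changes were -0.26 (limma adjusted p = 0.311) in Prdm9 KO and -0.40 (adjusted p = 0.149) in Hop2 KO. With columns rescaled to 1000000, Aurkb turned to 0.35 (adjusted p = 0.242) and 0.17 (adjusted p = 0.547), and Bub1 to 0.64 (adjusted p = 0.0763) and 0.57 (adjusted p = 0.0996), in Prdm9 KO and Hop2 KO. Measured from the median of all genes, every one of the 10 had a negative change under all 4 scalings, which for Bub1 in Prdm9 KO ranged only from -0.37 to -0.09 and for Aurkb from -0.70 to -0.37. Taking off the median nearly cancels any single factor per library. Apart from quantile normalization, the scalings therefore had to give much the same result here, and their agreement is not a check.

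**Figure D2:**
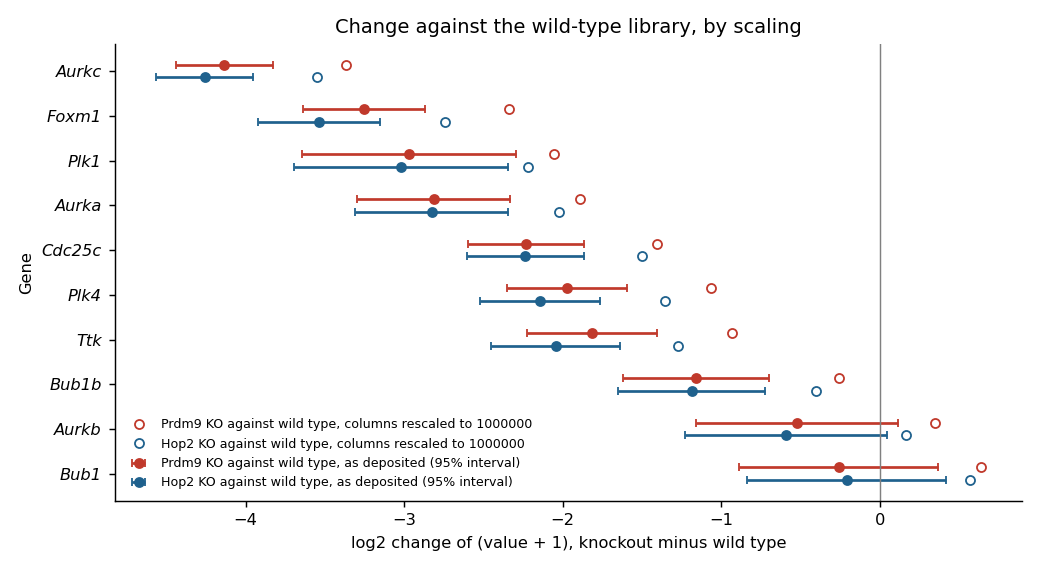
Change of each gene against the wild-type library on the log2(value + 1) scale, for Prdm9 KO (red) and Hop2 KO (blue), with filled points and 95% intervals for values as deposited and open points for columns rescaled to 1000000. From Aurkc down to Ttk all points lie left of 0, whereas Aurkb and Bub1 move from left to right of 0 with the rescaling and Bub1b moves to -0.26 and -0.40.

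Ratios of genes within a library do not depend on how its column was scaled. The pairs given here were chosen after the values had been seen and are a description without a test. Wild type held 9.69 times as much Aurka as Aurkb, and the knockouts 1.81 to 2.12 times. The ratio of Aurkc to Aurkb, the meiotic and the general kinase of the passenger complex, was 1.503 in wild type and 0.0419 to 0.0588 in the knockouts. Against Bub1, Plk1 stood at 4.74 in wild type and 0.646 to 0.719 in the knockouts, and Foxm1 at 4.82 and 0.392 to 0.651. Among the checkpoint kinases, Bub1b stood at 1.25 times Bub1 in wild type and 0.583 to 0.717 times in the knockouts, and Ttk at 0.993 and 0.226 to 0.339 times. In each of these pairs the 4 knockout libraries lay together and the wild-type library lay apart. All of them divide by Aurkb or Bub1, the members that did not pass against wild type. That wild type lay above the knockouts therefore follows largely from the choice of pairs. The order of the genes differed as well, with Aurka, Foxm1 and Plk1 at the top in wild type and Bub1 and Aurka at the top in every knockout library.

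**Figure D3:**
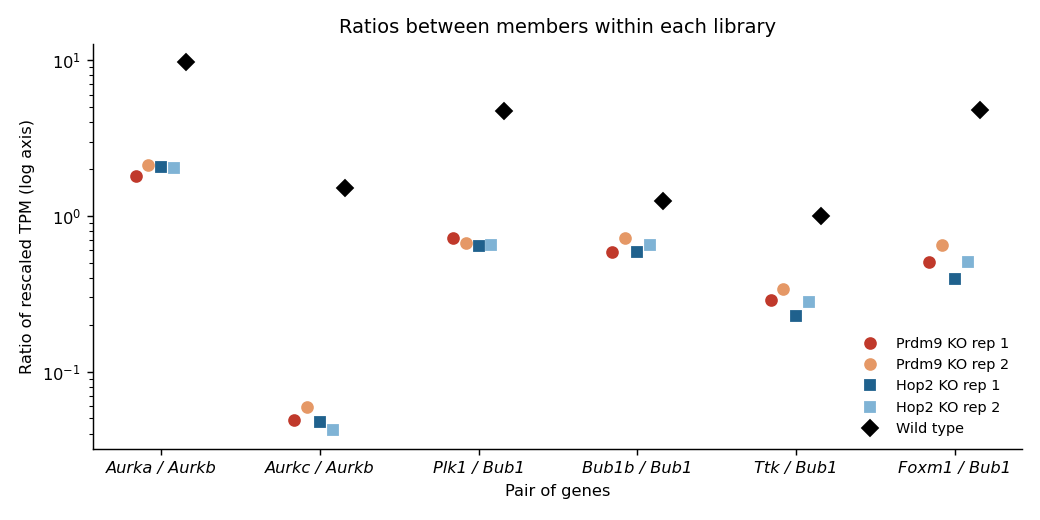
Ratios of rescaled TPM between pairs of the genes within each library, on a log axis, with 1 point per library. The wild-type diamond lies above the 4 knockout points in all 6 pairs, most widely for Aurkc to Aurkb (1.503 against 0.0419 to 0.0588). Each pair divides by Aurkb or Bub1, the members that did not pass against wild type.

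The mutants were set against each other in a fit of the 4 knockout libraries. None of the 9 tested genes passed the threshold (limma, adjusted p from 0.972 to 1.00), and none had an unadjusted p under 0.05. Over all 14358 genes tested, 0.0139% were called higher and 0% lower in Prdm9 KO. The largest difference belonged to Foxm1, at 0.29 log2 units higher in Prdm9 KO (SE 0.13, 95% interval -0.05 to 0.62). Ttk differed by 0.23 (-0.11 to 0.57) and Plk4 by 0.17 (-0.16 to 0.49). For Plk1 the interval ran from -0.44 to 0.53, for Aurka from -0.37 to 0.39, for Aurkb from -0.38 to 0.52, for Bub1 from -0.50 to 0.40, for Bub1b from -0.33 to 0.39 and for Cdc25c from -0.40 to 0.40. Aurkc lay under the minimum mean of 1 and was left out of that fit. In Plk4, Aurkc, Foxm1 and Ttk both Prdm9 KO libraries lay above both Hop2 KO libraries, as they did in 11.9% of the 16261 genes, while they lay below in 19.7%. No member showed the second pattern. In the authors' deposited table of their own gene test, whose compared groups are not named there, all 10 genes have a q-value of 1, and the lowest p-value is 0.125, for Foxm1.

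Transcripts of a gene did not all differ from wild type by the same factor. The estimates are shares of a gene's rescaled TPM without a test, and the split among overlapping transcripts is itself an estimate. Transcript ENSMUST00000109140 carried 77.8% of Aurka in wild type and 57.7% to 66.6% in the knockouts. The next Aurka transcripts, ENSMUST00000028997 and ENSMUST00000109139, have identical values in every library and were not told apart by the authors' quantification. For Aurkc, ENSMUST00000208049 carried 67.1% in wild type and 15.8% to 40.7% in the knockouts, where the whole gene lay under 1 rescaled TPM. Foxm1 transcript ENSMUST00000112148 carried 29.9% in wild type and 6.77% to 17.7% in the knockouts, whereas ENSMUST00000073316 carried 55.5% and 70.3% to 82.6%. Ttk transcript ENSMUST00000188445 carried 34.5% in wild type and 8.75% to 21.5% in the knockouts. For each of these named transcripts the wild-type share lay outside the range of the 4 knockout libraries. They were not chosen by a rule, and how often other transcripts show this was not counted. The leading Aurkb transcript, ENSMUST00000021277, did not show it, with 72.6% in wild type and 69.1% to 79.3% in the knockouts. A single transcript carried 100% of Plk1 and Cdc25c, 97.2% of Bub1 and 94.8% of Bub1b in wild type, while the leading one of 10 Plk4 transcripts carried 31.1%.

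**Figure D4:**
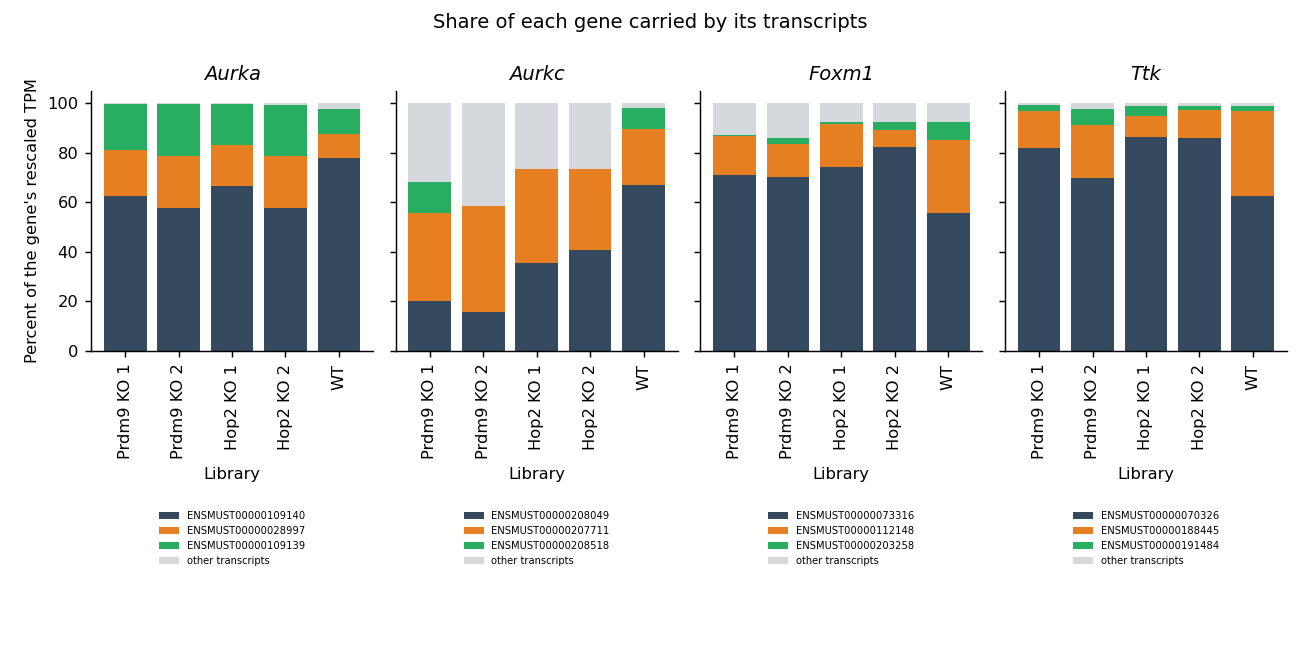
Share of each gene's rescaled TPM carried by its 3 most abundant wild-type transcripts and by all others (grey), as stacked percentages in each library, for Aurka, Aurkc, Foxm1 and Ttk. The leading transcript (dark) is larger in wild type for Aurka and Aurkc and smaller for Foxm1 and Ttk, where the next transcript (orange) reaches 29.9% and 34.5%.

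Partners of the 10 genes did not move as a block. The counts of each list stand beside 39.4% of all tested genes that fell and 34.6% that rose in Prdm9 KO, and 39.5% and 35.0% in Hop2 KO. Calls kept under every scaling in both comparisons stand beside 26.9% of all tested genes lower and 33.1% higher. Where a pair of log2 changes is given for a gene of these lists, the first is Prdm9 KO and the second Hop2 KO against wild type, and every change called a rise or a fall passed the limma threshold in both. Of 27 spindle checkpoint and kinetochore genes, 14 fell, 7 rose and 6 did not pass in Prdm9 KO, and 16 fell and 7 rose in Hop2 KO. Their median log2 change was -0.73 in both, but only 3 fell and 7 rose under every scaling in both comparisons. Haspin, a histone H3 kinase that helps recruit the passenger complex and whose gene lies inside an intron of Itgae, stood at 2.50 to 2.95 rescaled TPM in the knockouts and 529 in wild type. Its log2 change was -7.16 in both comparisons. Cenpe, a kinetochore motor, fell, with log2 changes of -2.08 in Prdm9 KO and -2.35 in Hop2 KO. Cenpa, the centromeric histone H3, rose by 2.07 and 2.14, from 6.83 in wild type to between 31.1 and 34.9. Mad2l1, the checkpoint protein MAD2 (chosen after its values were seen), also rose, from 8.66 to between 17.5 and 20.4.

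Among 16 aurora partners and spindle genes, 10 fell and 1 rose in Prdm9 KO, and 12 fell and 1 rose in Hop2 KO. Under every scaling 7 fell and 1 rose. Kif2c, a microtubule depolymerase and a substrate of AURKB, fell from 381 in wild type to between 11.5 and 12.3, a log2 change of -4.91 in Prdm9 KO and -4.84 in Hop2 KO. Nek2, a centrosome kinase listed under more than 1 identifier with equal values, fell (log2 changes of -2.51 and -2.61), and Bora, which helps AURKA activate PLK1, fell (log2 change of -2.42 in both). The passenger subunit Birc5 (survivin, chosen after its values were seen) fell (log2 changes of -2.43 and -2.36). Aurkb stood at 0.206 times Birc5 in wild type and at 0.670 to 0.854 times in the knockouts. Against Incenp it stood at 0.399 times in wild type and at 0.519 to 0.693 times in the knockouts.

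All 12 polo relatives and centriole genes passed the threshold, 9 lower and 3 higher in each comparison, and 4 fell and 3 rose under every scaling. The 3 that rose were the other polo kinases Plk2, Plk3 and Plk5, named after their values were seen. Plk2 stood at 17.2 to 19.8 in the knockouts and 7.98 in wild type, Plk3 at 2.22 to 2.50 against 0.798, and Plk5 at 4.82 to 5.09 against 2.05. Cep63, a centriole duplication protein, fell, with log2 changes of -4.11 in Prdm9 KO and -4.01 in Hop2 KO. Sass6, the cartwheel protein that acts downstream of PLK4, fell (log2 changes of -3.35 and -3.41). Cdk5rap2, a pericentriolar protein, fell (log2 changes of -2.65 and -2.94). Plk4 stood at 1.40 times Sass6 in wild type and at 4.01 to 4.37 times in the knockouts.

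Of 19 tested genes of division entry and exit, 9 fell and 5 rose in Prdm9 KO, 10 fell and 6 rose in Hop2 KO, and 8 fell and 5 rose under every scaling. Ccna1, the cyclin A of male meiosis, stood at 0.250 to 0.440 in the knockouts and 254 in wild type, with log2 changes of -7.58 and -7.55. Fbxo43, also of this list, stood at 0.521 to 0.685 in the knockouts and 7.96 in wild type. Both reached the mean of 1 needed for testing only through wild type, so they could pass only as lower. Both are counted among the genes that fell. Pkmyt1, a kinase that restrains CDK1, fell (log2 changes of -4.48 and -4.03), and Hspa2, a testis chaperone needed for CDK1 activity at the meiotic division, fell (log2 changes of -3.42 and -3.48). The relatives of Cdc25c, named after their values were seen, went separate ways. Cdc25a fell (log2 changes of -1.46 and -1.40), whereas Cdc25b rose by 1.24 and 1.21, so Cdc25c stood at 9.38 times Cdc25b in wild type and at 0.454 to 0.566 times in the knockouts.

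Of 17 genes of the DREAM complex, MYB and E2F factors, the regulators of late cell cycle genes together with FOXM1, 7 fell and 2 rose in Prdm9 KO and 8 fell and 3 rose in Hop2 KO. Under every scaling 2 fell and 2 rose. Rbl2, the pocket protein p130, fell (log2 changes of -3.07 and -2.98), E2f8 fell (log2 changes of -2.19 and -2.38), and E2f3 rose by 1.59 and 1.51. The 16 genes listed as DNA replication were taken as a set of dividing cells, and they include Mki67 and Top2a. Of the 16, 4 fell and 7 rose in each comparison, and 1 fell and 7 rose under every scaling. The helicase subunit gene Mcm2 rose by 1.98 and 1.74 and the licensing factor gene Cdt1 rose by 1.68 and 1.60, whereas Mcm7, another subunit gene, fell (log2 changes of -1.58 and -1.48). No gene of these 6 lists was called between Prdm9 KO and Hop2 KO, where 0.0139% of all tested genes were called higher and 0% lower. Of the genes of division entry and exit, 17 were tested in that fit.

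**Figure D5:**
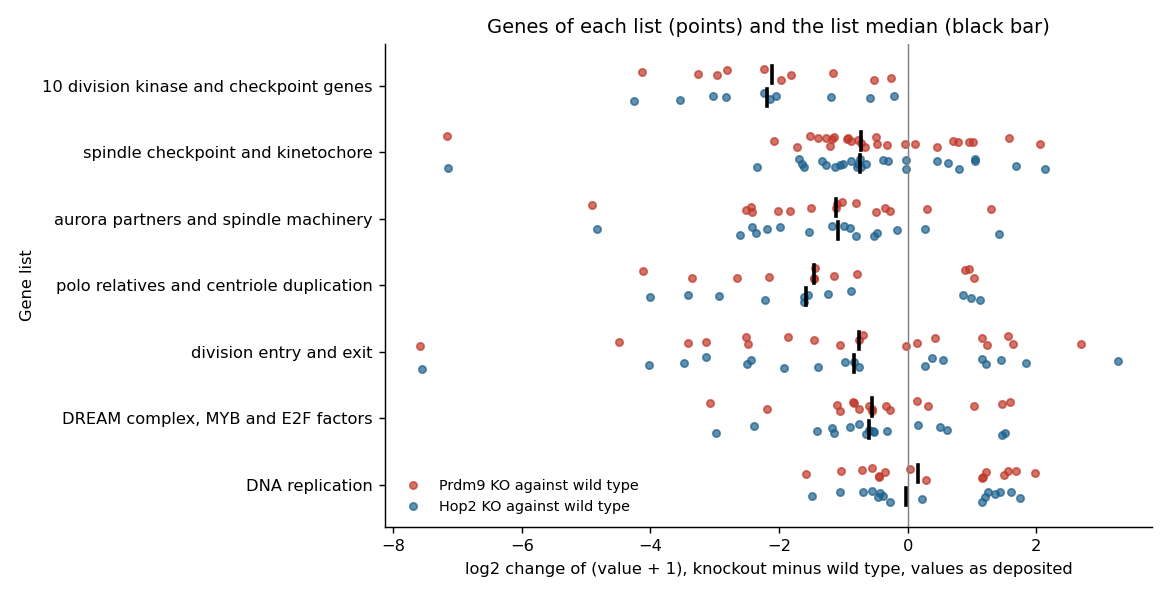
Log2 change against wild type of each gene (points) in the 10 division kinase and checkpoint genes and in 6 lists of related genes, for Prdm9 KO (red) and Hop2 KO (blue), values as deposited, with a black bar at each list's median. The 10 genes have medians of -2.10 and -2.19, and the related lists range from -1.45 and -1.58 for polo relatives and centriole genes to 0.16 and -0.03 for DNA replication genes.

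Promoters of 7 of the 10 genes were in the RefSeq table used here (build GRCm38.p6, 250 bases before to 50 after the annotated start), and those of Foxm1, Aurkb and Cdc25c were not analysed here. That annotated start is the one of the promoter table, and for Aurka, Aurkc, Bub1b and Ttk it lies inside the gene bounds given above. The cell cycle genes homology region (CHR) is a short element through which the DREAM and MYB complexes are known to act on genes of division, often beside a CCAAT box. TTTGAA, its best known form, was found on either strand in 4 of the 7 promoters, and in each of the 4 it lay after the annotated start. The stretches around these matches are shown with TTTGAA, or its reverse complement in Ttk, in capitals, on the strand of the gene.
Plk1 (chr7:122159453-122159482, + strand): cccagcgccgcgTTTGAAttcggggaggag
Aurka (chr2:172370521-172370550, - strand): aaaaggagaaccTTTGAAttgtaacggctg
Bub1b (chr2:118598231-118598260, + strand): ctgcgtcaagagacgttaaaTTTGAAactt
Ttk (chr9:83834684-83834713, + strand): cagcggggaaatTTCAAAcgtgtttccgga

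Counting TTTAAA as well, CHR letters occurred in 5 of 7 promoters (Plk1, Plk4, Aurka, Bub1b and Ttk), against 27.6% of all 32851 promoters in the table. TTTGAA alone occurred in 17.9% of all promoters. In the 250 bases before the start alone, CHR letters occurred in 2 of 7 promoters (Plk1 and Plk4), against 25.2% of all, so the higher count rests on the 50 bases after the start. CCAAT, on either strand, occurred in 6 of 7 (not in Plk4), against 37.4% of all. Among 89 genes of the 6 related lists with a promoter in the table, 52.8% held CHR letters and 67.4% CCAAT. The MYB motif TAACNG occurred in Aurka alone, against 23.3% of all promoters, overlapping no CHR match. The E2F forms TTTGGCGC, TTTCCCGC and TTCCCGCC and the CRE motif TGACGTCA occurred in none of the 7, against 3.21% and 1.79% of all. The 2 promoters without CHR letters belong to Bub1, which lay nearest to its wild-type level in values as deposited, and to Aurkc, which lay farthest below it. A match is a string of letters and not a site shown to be bound.

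The 250 bases before the start are shown for Plk1, which holds both elements, and for Aurkc, the germ cell kinase, which holds neither in that stretch. Capitals mark TTTAAA and CCAAT, which do not overlap each other.
Plk1 (chr7:122159185-122159434, + strand): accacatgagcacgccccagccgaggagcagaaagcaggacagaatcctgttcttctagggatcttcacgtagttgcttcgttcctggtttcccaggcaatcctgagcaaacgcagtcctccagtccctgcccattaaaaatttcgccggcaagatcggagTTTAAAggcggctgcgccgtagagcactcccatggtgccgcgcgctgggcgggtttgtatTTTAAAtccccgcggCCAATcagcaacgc
Aurkc (chr7:6995135-6995384, + strand): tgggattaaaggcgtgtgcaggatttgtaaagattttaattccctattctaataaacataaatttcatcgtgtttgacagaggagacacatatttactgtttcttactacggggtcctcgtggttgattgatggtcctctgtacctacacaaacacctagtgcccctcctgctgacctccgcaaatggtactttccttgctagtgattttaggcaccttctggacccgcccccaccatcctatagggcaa

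Some of these gene starts coincided with meiotic breaks in the Prdm9 K/K testis. Single-stranded DNA sequencing (SSDS) recovers DNA bound by recombinases at breaks, and the single library gave 17731 peaks by the authors' calls. The starts of Bub1, Plk1, Plk4 and Ttk lay inside a peak, and those of Aurka, Aurkc and Bub1b lay 24094, 17369 and 101721 bases from the nearest one. A peak within 1000 bases was thus found for 4 of 7 member starts, against 34.5% of all 32851 starts and 65.1% of the 8256 starts of genes with at least the lowest wild-type level of the 10, a comparison chosen after seeing the data. Within 1000 bases of the start lay 111 distinct fragments at Ttk, 75 at Plk4, 38 at Bub1, 31 at Plk1, 28 at Aurka and 4 at Bub1b, with a median of 3 over all starts. Aurkc had 0 fragments, which allows up to 3, counting error only. With 1 library there is no replicate check, and breaks in wild type were not analysed here.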

How the data were processed

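The mRNA values are an abundance signal that the authors called TPM, per the file headers. The submitters' processing notes name kallisto, sleuth and CASAVA with the builds mm10 and GRCm38; no version and no transcript set is named. Columns do not sum to 1000000, so the factor behind them and the read depth are unknown. P-values and q-values per gene come from a test that the authors ran. Break peaks came from MACS2 2.1.0.20150420, per the submitters' processing notes, and carry no score per peak. The break file holds 9397213 fragment lines, of which 2652951 are distinct.

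Values were tested here on the log2(value + 1) scale with limma 3.58.1 (R 4.3.3) and its intensity trend. The p-values were adjusted by Benjamini-Hochberg over all genes whose mean was at least 1. Changes against wild type were estimated from all 5 libraries together, and Prdm9 KO against Hop2 KO from the 4 knockout libraries. The fitting code was tested on simulated data. The added 1 shrinks fold changes of low genes.

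Alternatives were the scaling of the columns, pseudocounts of 0.5 and 5, no filter or a minimum mean of 5, no trend, leaving out each knockout library and a replicate block. The 10 genes and the lists were chosen with earlier results of these data known. All 10 are named, plus the targeted genes and the up to 3 genes per related list with the largest mean absolute change. Some other list genes and markers are named outside that rule, several of them after their values were seen. Motifs were searched on both strands with Python 3.11.15. Wee2 was not tested for its low level, 0 columns of sample values went unused, and microRNA and histone libraries were not used here.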

Additional observations from a re-analysis of the deposited data

How the results depend on the processing

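In Prdm9 KO and Hop2 KO against wild type, 7 to 9 members fell under every alternative and 0 rose: 7 with columns rescaled to 1000000, 9 with the replicate block and 8 under each of the others, including the fits that leave out a knockout library. The replicate numbers are not given as pairs by the labels, and deviations of same-numbered libraries correlated at 0.413 over 14358 genes with only 2 pairs. With the block Aurkb passed (limma adjusted p = 0.0247 and, for Hop2 KO, 0.0187), and 8 genes of the whole table were called between Prdm9 KO and Hop2 KO, none of them a member, against 2 without it. Signs turned with the scaling for Aurkb (rescaled columns, 0.35 and 0.17 in the order of the comparisons above) and for Bub1 (0.64 and 0.57 with rescaled columns, 0.23 and 0.28 after quantile normalization, 0.0052 and 0.0493 after median-ratio scaling). Between Prdm9 KO and Hop2 KO, where no difference passed, Bub1 turned to 0.0678 with rescaled columns and Cdc25c to -0.0207 after quantile normalization. Leaving out each library gave ranges of -0.14 to 0.24 for Plk1, -0.14 to 0.16 for Aurka, -0.0793 to 0.21 for Aurkb, -0.24 to 0.14 for Bub1, -0.0887 to 0.15 for Bub1b and -0.0363 to 0.0392 for Cdc25c. In the stretch before the start alone, 2 of 7 promoters held CHR letters (25.2% of all promoters) and 0 the MYB motif (19.8%). A stricter peak threshold was not run, since peaks carry no score. Depth is unknown, so the precision of low values such as Aurkc in the knockouts cannot be given.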
